A study of Mus musculus with 10 samples.

Results

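The CSF1 receptor gene Csf1r and the genes of its 2 ligands, Csf1 and Il34, were followed in RNA sequencing libraries of microglia from the mouse brainstem. Each of the 3 symbols matched 1 row of the expression table, so all 3 members were found among the 37447 genes it holds. The libraries fall into 3 groups, all from mice aged 6 weeks. LCM_GFP holds 4 libraries (3 female and 1 male) of GFP expressing microglia cut out of brainstem sections with a laser. FACS_GFP holds 3 libraries (2 female and 1 male) of GFP expressing microglia isolated by flow sorting, and FACS_WT holds 3 libraries (all male) of wild-type C57BL/6 microglia isolated by flow sorting. The strain of the GFP mice, the promoter that drives GFP and the number of cells per library are not given in the sources used here. No agent or further allele is labelled in any group. Sorted cells came from dissociated, Percoll-enriched tissue with RNA taken up in TRIzol, whereas sections for laser capture were fixed briefly, frozen and later extracted with proteinase K and acid phenol. Isolation, fixation and extraction therefore cannot be told apart between LCM_GFP and either sorted group, and GFP genotype and the males-only makeup of FACS_WT cannot be fully told apart between the sorted groups. Each library is labelled as a biological replicate.

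CSF1R is a receptor tyrosine kinase of microglia and other macrophages. Signalling through it keeps microglia alive, and mice without it lack nearly all of them. CSF1 and IL-34 share no clear sequence similarity but bind the same receptor. In the mouse brain IL-34 is known mainly from forebrain neurons, and CSF1 mainly from glia and from white matter and hindbrain regions. IL-34 also binds PTPRZ1, a receptor-type phosphatase of glia and neural precursors, and SDC1, a cell surface proteoglycan.

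Levels are FPKM, that is fragments scaled to transcript length and to the library's mapped fragments, so they can be set side by side between genes. The sums of FPKM per library lay between 393949 and 632854, and between 11075 and 12500 genes reached 1 FPKM. All 20 microglial genes of a marker list, Csf1r among them, were above 0 in all 10 libraries. The 14 listed neuronal genes summed to 1445 to 3324 FPKM in LCM_GFP libraries, against 4.53 to 14.3 in FACS_GFP and 3.43 to 4.41 in FACS_WT libraries. The 12 oligodendrocyte genes summed to 2686 to 7808 FPKM in LCM_GFP, against 21.8 to 26.6 in FACS_GFP and 24.5 to 33.5 in FACS_WT. Markers of other brain cells were thus measured beside those of microglia in the laser-captured libraries. Laser-captured libraries 1 and 3 stood apart: the embryonic globin gene Hbb-y was at 902 and 439 FPKM there, against 0.102 and 0.0666 FPKM in laser-captured libraries 2 and 4, and it was listed at 0 in every sorted library. Laser-captured library 1, labelled female, also held 15.6 FPKM of the Y-linked gene Uty beside 14.0 FPKM of Xist, whereas the Y-linked genes Ddx3y, Eif2s3y and Kdm5d were at 0.198, 2.25 and 3.26 FPKM there, against 4.41, 47.9 and 36.5 FPKM in the male laser-captured library 2.

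Csf1r (ENSMUSG00000024621, chromosome 18, 61265225 to 61291803 in build mm9) was one of the most abundant genes of the sorted microglia and was lower in the laser-captured ones. In LCM_GFP it was at 239, 610, 657 and 283 FPKM in libraries 1 to 4. In FACS_GFP it was at 924, 787 and 972 FPKM, and in FACS_WT at 976, 957 and 1470 FPKM. All 4 laser-captured libraries lay below all 6 sorted ones, and laser-captured libraries 1 and 4 were the lowest. Ranked by FPKM within a library, Csf1r stood between place 44 and place 268 in LCM_GFP, between 27 and 34 in FACS_GFP and between 17 and 28 in FACS_WT.

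Tests were made with limma on log2(FPKM + 1), a scale that compresses changes of genes near 0. Csf1r averaged 447 ± 217 FPKM in LCM_GFP (SD, n = 4), against 894 ± 96.3 FPKM in FACS_GFP and 1134 ± 291 FPKM in FACS_WT (SD, n = 3 each). Against FACS_GFP the log2 change was -1.13 (SE 0.41, limma adjusted p = 0.0645), which did not pass the threshold of 0.05. Against FACS_WT it fell by 1.45 on the log2 scale (SE 0.42, limma adjusted p = 0.0336). The exact two-sided permutation p over the libraries was 0.0571 in each case, the smallest that 4 against 3 libraries can give. Both comparisons use the same 4 laser-captured libraries. Of the members that could be tested, Csf1r and Csf1, none was called lower against FACS_GFP, where 19.6% of 13403 genes were, and Csf1r was called lower against FACS_WT, where 19.1% of 13415 genes were. Groups that did not overlap in the lower direction were found for 31.2% of genes against FACS_GFP and 29.6% against FACS_WT. The median change of all tested genes was itself -0.60 against FACS_GFP and -0.59 against FACS_WT, and 34.1% and 24.8% of genes had a more negative change than Csf1r. With median ratio scaling between libraries these medians were -0.12 and -0.11, and the changes of Csf1r were -0.58 and -0.90, neither called. FACS_WT is all male, so with sex as a covariate the change against FACS_WT rests on laser-captured library 2, the only male of its group. That change was -0.86. With quantile normalization, no filter on low values or no variance trend, the change against FACS_WT missed the threshold (limma adjusted p = 0.0543 to 0.0656). It was -1.45 to -1.25 there. The call was also lost without any 1 of the 3 FACS_WT libraries or without laser-captured library 4 (log2 changes of -1.56 to -1.25, limma adjusted p = 0.0716 to 0.138), and the change against FACS_GFP passed the threshold without laser-captured library 2 or 3 (limma adjusted p = 0.0460 and 0.0363).

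**Figure D1:**
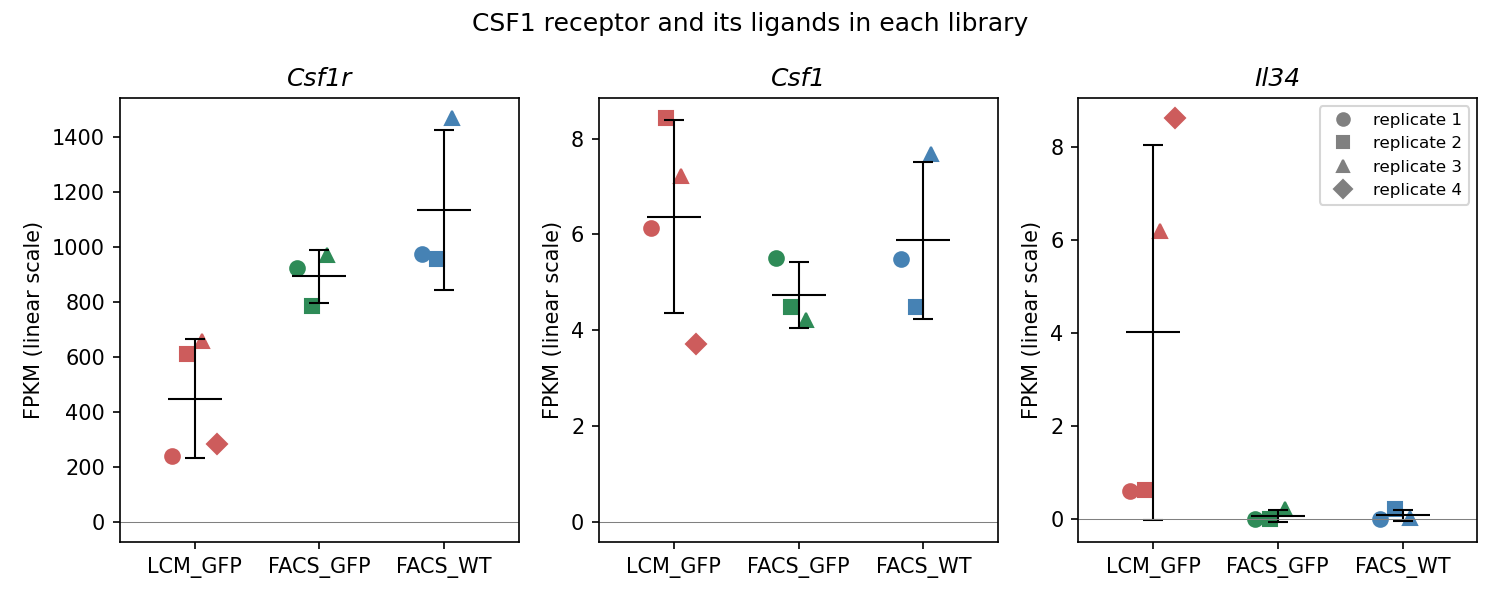
FPKM (linear axes) of Csf1r, Csf1 and Il34 in each library of LCM_GFP, FACS_GFP and FACS_WT; marker shapes give the replicate number, long bars the group mean and whiskers the SD. The LCM_GFP libraries lie below all sorted libraries for Csf1r, between 3.71 and 8.43 FPKM among them for Csf1, and above them for Il34, where 2 of the 4 exceed 6 FPKM.

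Between the sorted groups no difference in Csf1r passed the threshold. FACS_GFP libraries lay at 787 to 972 FPKM and FACS_WT libraries at 957 to 1470 FPKM, so the groups overlapped. The log2 change was -0.32 with a 95% interval of -0.76 to 0.12 (limma adjusted p = 0.496), and 10.0% of tested genes had a more negative change. Without FACS_WT library 3, the highest of the 10, it was -0.12. Among all 11814 genes tested between the sorted groups, 0.110% were called, and neither testable member was. In the order of group means, LCM_GFP, FACS_GFP and FACS_WT, only the difference between LCM_GFP and FACS_WT passed the threshold.

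Csf1r was then set against the other genes of the microglial list. In bulk libraries fewer microglia and less RNA per microglial cell cannot be told apart, so the level was also read relative to microglial genes of the same library. Csf1r exceeded the median of the other 19 microglial genes by 1.79, 1.76, 2.02 and 1.49 on the log2(FPKM + 1) scale in LCM_GFP libraries 1 to 4. The excess was 1.40, 1.29 and 1.47 in FACS_GFP and 1.42, 1.50 and 1.88 in FACS_WT. All 4 LCM_GFP libraries were above the 3 FACS_GFP libraries, whereas LCM_GFP and FACS_WT overlapped. The mean excess was 1.76 ± 0.22 in LCM_GFP (n = 4), against 1.39 ± 0.09 in FACS_GFP (n = 3), a difference of 0.38 (exact permutation p = 0.0571, the smallest possible). Against FACS_WT, at 1.60 ± 0.25 (n = 3), the difference was 0.16 (exact permutation p = 0.514). No laser-captured library had a smaller excess of Csf1r than any FACS_GFP library.

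The microglial list as a whole was lower in LCM_GFP: 14 of its 20 tested genes were called lower against FACS_GFP and 18 against FACS_WT, and none was called higher. Its median log2 change was -1.56 against FACS_GFP and -1.80 against FACS_WT. Of all tested genes, 19.6% and 19.1% were called lower in these comparisons. Ctss, which encodes the lysosomal protease cathepsin S, had the change farthest from 0 against FACS_GFP, at -2.42 (limma adjusted p = 0.0119). Between the sorted groups 1 of the 20 was called, Cx3cr1, the fractalkine receptor gene, which averaged 69.2 ± 4.10 FPKM in FACS_GFP and 136 ± 11.7 FPKM in FACS_WT (SD, n = 3 each).

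**Figure D2:**
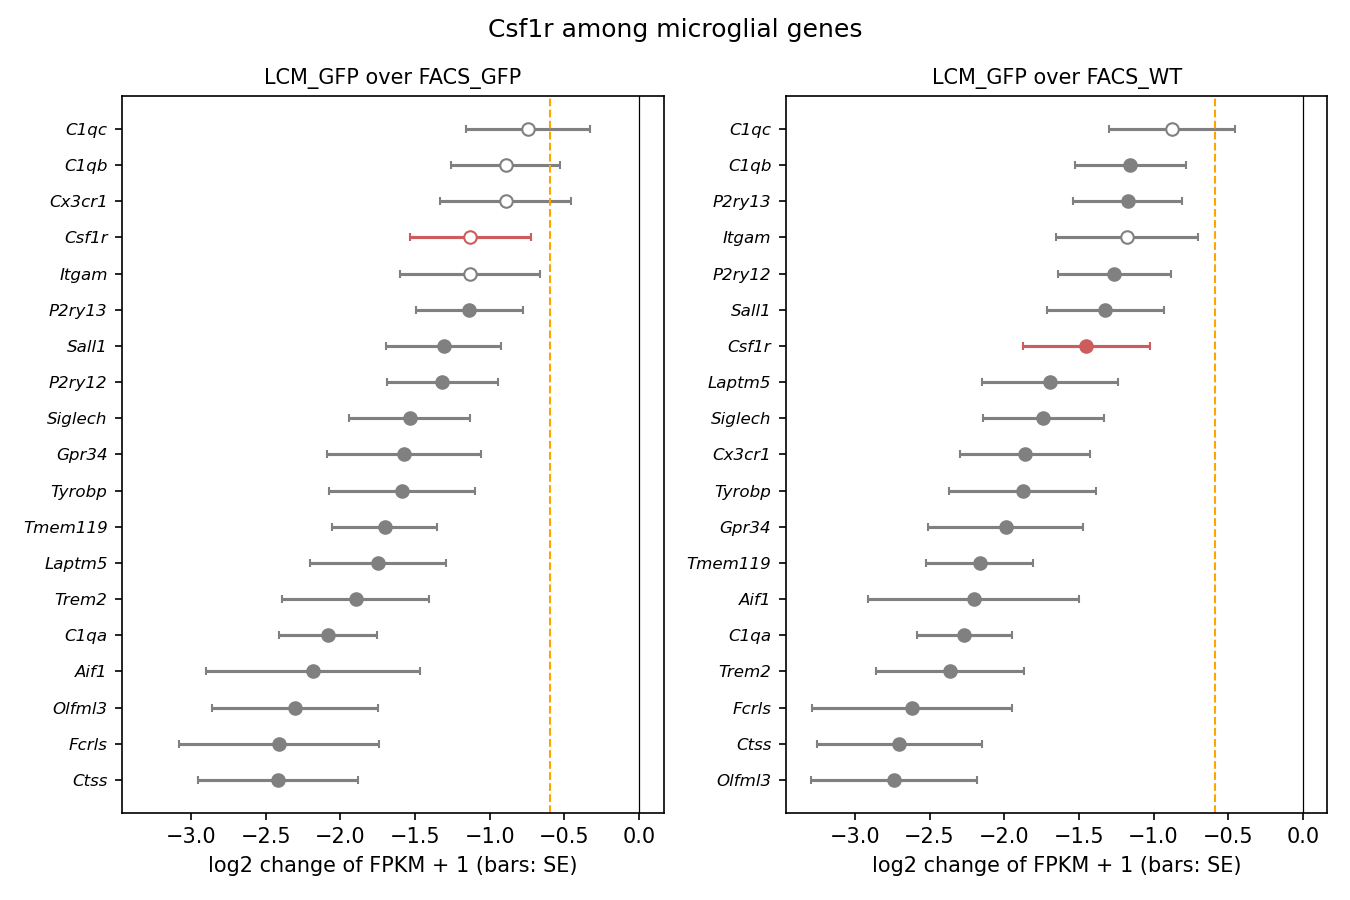
Log2 change of FPKM + 1 (points; bars are SE) of Csf1r, in red, and 18 other listed microglial genes, in grey, in LCM_GFP over FACS_GFP (left) and over FACS_WT (right). Filled points have an adjusted p under 0.05, and the dashed line is the median of all tested genes (-0.60 and -0.59); all genes drawn lie left of 0, and Csf1r, at -1.13 and -1.45, lies to the right of the list's median in both panels.

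By Pearson correlation of log2(FPKM + 1) over the 10 libraries, 4 of the genes most like Csf1r among 8638 ranked were Lgmn (r = 0.992), Selplg (0.987), Gpr34 (0.984) and Ccdc88b (0.984). Lgmn encodes the lysosomal protease legumain, Selplg a selectin ligand and Gpr34 a G protein-coupled receptor of microglia. The 10 points belong to 3 groups and share library and depth, so these values are descriptive.

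Csf1 (ENSMUSG00000014599, chromosome 3, 107543965 to 107563387 in mm9) was present at between 3.71 and 8.43 FPKM in all 10 libraries. In LCM_GFP libraries 1 to 4 it was at 6.13, 8.43, 7.22 and 3.71 FPKM. In FACS_GFP it was at 5.50, 4.49 and 4.21 FPKM, and in FACS_WT at 5.49, 4.48 and 7.68 FPKM. The groups overlapped in every comparison, and laser-captured library 4 was the lowest of all 10. The means were 6.37 ± 2.01 FPKM in LCM_GFP (n = 4), 4.74 ± 0.68 FPKM in FACS_GFP and 5.88 ± 1.64 FPKM in FACS_WT (n = 3 each).

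Csf1 did not pass the threshold in any comparison. Against FACS_GFP the log2 change in LCM_GFP was 0.32, with a 95% interval of -0.69 to 1.34 (limma adjusted p = 0.600). Against FACS_WT it was 0.08, with an interval of -0.98 to 1.14 (limma adjusted p = 0.911), and it turned to -0.071 without FACS_WT library 2. In FACS_GFP over FACS_WT it was -0.24, with an interval of -0.68 to 0.19 (limma adjusted p = 0.588). With median ratio scaling and with quantile normalization the change in LCM_GFP was 0.78 and 0.73 over FACS_GFP, and 0.54 and 0.50 over FACS_WT, none of them called. The intervals leave room for changes in both directions. Set against the median change of all genes in the laser-captured comparisons, 72.0% and 67.3% of tested genes had a change below that of Csf1. CSF1 is made as secreted and cell surface forms from alternative transcripts. The GENCODE M21 annotation, which was not used to make the values, lists 6 protein-coding transcripts of Csf1, and the FPKM per gene does not separate them.

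Within a library, Csf1r was far above Csf1. The ratio of their FPKM was 39.1, 72.4, 91.0 and 76.2 in LCM_GFP libraries 1 to 4. It was 168, 175 and 231 in FACS_GFP and 178, 214 and 191 in FACS_WT. Every laser-captured library was below every sorted one, and this ratio, chosen after the values were seen, was not tested. The genes most like Csf1 over the 10 libraries were Msl1 (r = 0.881), Suclg1 (0.861), Pim2 (0.854), Mad1l1 (0.846) and Egln2 (0.840), which is looser than for the receptor. Msl1 encodes a subunit of a histone acetyltransferase complex, and Pim2 a serine/threonine kinase.

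Il34 (ENSMUSG00000031750, chromosome 8, 113265728 to 113329824 in mm9) was listed at 0 or at most at 0.225 FPKM in the sorted microglia and was measured in every laser-captured library, in 2 of them above 1 FPKM. It was at 0.610, 0.632, 6.18 and 8.61 FPKM in LCM_GFP libraries 1 to 4. In FACS_GFP it was listed at 0 in libraries 1 and 2 and was at 0.224 FPKM in library 3. In FACS_WT it was listed at 0 in library 1 and was at 0.225 and 0.0323 FPKM in libraries 2 and 3. No laser-captured library overlapped a sorted one, but the spread within LCM_GFP was wide, with libraries 3 and 4 about an order of magnitude above libraries 1 and 2.

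Because only 2 libraries reached 1 FPKM, Il34 missed the filter of at least 1 FPKM in at least 3 libraries and was not in the limma tests. Its mean log2(FPKM + 1) was 1.78 higher in LCM_GFP than in FACS_GFP and 1.76 higher than in FACS_WT (exact permutation p = 0.0571 each, the smallest possible). Among genes that passed the filter, 17.0% and 16.9% had non-overlapping groups in this direction. With no filter the limma adjusted p was 0.157 in both comparisons. The size depends on the scale: it was 3.96 and 3.83 with a pseudocount of 0.1, and 0.715 and 0.712 with a pseudocount of 5. With sex as a covariate it was 0.594 over FACS_WT, a value that sets laser-captured library 2 alone against the all-male FACS_WT. In FACS_GFP over FACS_WT the difference was -0.02 (exact permutation p = 0.7).

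Which of the 2 ligands was the more abundant differed between laser-captured libraries. Il34 minus Csf1 on the log2(FPKM + 1) scale was -2.15, -2.53, -0.19 and 1.03 in LCM_GFP libraries 1 to 4. It was -2.70, -2.46 and -2.09 in FACS_GFP and -2.70, -2.16 and -3.07 in FACS_WT. Csf1 thus exceeded Il34 in 9 of the 10 libraries, and laser-captured library 4 was the exception. The difference between LCM_GFP and FACS_GFP was 1.46 (exact permutation p = 0.286) and that between LCM_GFP and FACS_WT 1.68 (exact permutation p = 0.114), so neither stood out from the spread between libraries. Without laser-captured library 4 the differences were 0.792 and 1.02, and with a pseudocount of 5 they were 0.507 and 0.656. Added together, the ligands made 6.74, 9.06, 13.4 and 12.3 FPKM in LCM_GFP libraries 1 to 4, against 4.43 to 5.50 FPKM in FACS_GFP and 4.70 to 7.71 FPKM in FACS_WT. Libraries 3 and 4 had the highest sums of the 10.

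**Figure D3:**
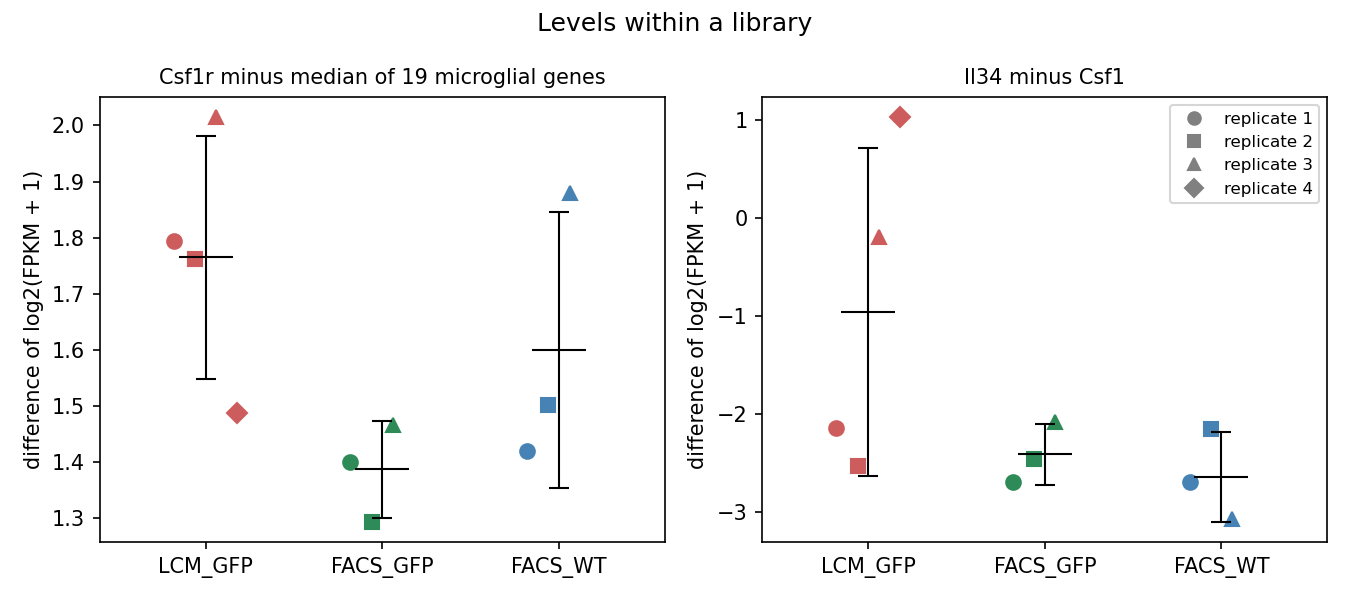
Differences of log2(FPKM + 1) within each library: Csf1r minus the median of the other 19 microglial genes (left) and Il34 minus Csf1 (right), with replicate numbers as marker shapes, group means as long bars and SD as whiskers. On the left the LCM_GFP libraries lie at 1.49 to 2.02 and the FACS_GFP libraries at 1.29 to 1.47; on the right the LCM_GFP libraries spread between -2.53 and 1.03.

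Markers of other brain cells, like Il34, stood higher by their medians in every laser-captured library than in any sorted one. Within LCM_GFP these medians did not follow the order of Il34, whereas the sums of the neuronal and of the astrocyte genes did. In LCM_GFP libraries 1 to 4 the neuronal sums were 1445, 2024, 2226 and 3324 FPKM. The astrocyte sums were 735, 1227, 1270 and 1544 FPKM. The oligodendrocyte sums, at 2686, 7808, 4866 and 4610.5 FPKM, did not follow that order. Nor did the sums of the oligodendrocyte precursor genes, at 175, 248, 166 and 256 FPKM. Those of the endothelial genes, at 453, 131, 195 and 455 FPKM, did not follow it either. Il34 itself was nearly equal in libraries 1 and 2, at 0.610 and 0.632 FPKM, so the order of these libraries is not firm. The median of the 14 neuronal genes was 70.2, 48.1, 64.5 and 129 FPKM in LCM_GFP libraries 1 to 4, and at most 0.110 FPKM in any sorted library. That of the 12 oligodendrocyte genes was 38.2, 186, 111 and 138 FPKM in LCM_GFP libraries 1 to 4, and at most 0.422 FPKM in any sorted library. For the 10 astrocyte genes it was 17.8, 46.8, 28.2 and 57.3 FPKM in LCM_GFP libraries 1 to 4, and at most 0.213 FPKM in any sorted library. All 4 laser-captured libraries held these markers. Laser-captured library 4, with the most Il34, had the highest neuronal and astrocyte medians. Library 1, with the least Il34, had the second highest neuronal median, and library 2, also low in Il34, had the highest oligodendrocyte and the second highest astrocyte median. Against FACS_GFP, all 14 tested neuronal genes, 11 of 12 oligodendrocyte genes and all 7 genes of their precursors were called higher in LCM_GFP. So were 8 of 10 astrocyte and 7 of 9 endothelial genes. All these counts were the same against FACS_WT. Of all tested genes, 12.5% and 12.3% were called higher. Most of the marker genes passed the filter through LCM_GFP, the group where they are high, so the counts are no independent test. Between the sorted groups only 3 neuronal, 4 oligodendrocyte, 2 astrocyte and 2 endothelial genes, and none of the precursor genes, could be tested. Of the 11 listed genes of monocytes and perivascular macrophages, 6 were tested against FACS_GFP and 5 against FACS_WT. In each comparison 1 was called lower, against 19.6% and 19.1% of all tested genes. The list summed to 2.35 to 19.1 FPKM in LCM_GFP, against 14.6 to 27.2 FPKM in FACS_GFP and 19.4 to 23.4 FPKM in FACS_WT. The part of these cells in the levels of Il34, Csf1 and Csf1r was not tested.

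The genes most like Il34 over the 10 libraries, among 8639 ranked, were Lmo7 (r = 0.986), Cpeb3 (0.986), Tmem145 (0.985), Abca8a (0.985) and Sesn3 (0.983). Lmo7 averaged 13.8 FPKM in LCM_GFP, against 0.0210 FPKM in FACS_GFP and 0.0156 FPKM in FACS_WT. Cpeb3, an RNA-binding regulator of translation, was present in sorted cells too, at 17.6 FPKM in LCM_GFP, against 1.46 FPKM in FACS_GFP and 1.55 FPKM in FACS_WT.

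The authors' deposited table of group comparisons calls none of the members significant. In the authors' deposited table the log2 fold change of Csf1r was -1.35 in LCM_GFP over FACS_GFP (q = 0.200), 1.64 in FACS_WT over LCM_GFP (q = 0.0818) and 0.28 in FACS_WT over FACS_GFP (q = 0.939), so its directions are those given above. Its Csf1r locus runs to 61336704 and spans the neighbouring gene Hmgxb3, whose own row overlaps Csf1r by 872 bases in the expression table and holds 2.48 to 12.03 FPKM. For Csf1 the authors' deposited table gives -0.25 in LCM_GFP over FACS_GFP and 0.49 in FACS_WT over LCM_GFP (q = 1 each), both of the opposite sign to the changes computed here from the libraries' FPKM. For Il34 the authors' deposited table gives 5.25 in LCM_GFP over FACS_GFP (q = 0.856) and -5.09 in FACS_WT over LCM_GFP (q = 0.819). The 2 predicted genes whose rows overlap Il34, Gm15894 and Gm15895, were listed at 0 in all 10 libraries.

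The wider pathway was read from 8 lists with 96 genes in the table, whose members were chosen from general knowledge. In LCM_GFP over FACS_GFP 87 were tested: 5 were called higher (5.75%, against 12.5% of all genes) and 29 lower (33.3%, against 19.6% of all genes), with a median change of -1.14. Over FACS_WT 86 were tested, with 7 higher (8.14%, against 12.3%) and 27 lower (31.4%, against 19.1%) and a median of -1.10. These 2 comparisons share the laser-captured libraries. Leaving out any 1 sorted library left 6 to 8 genes called lower and 1 higher in either comparison, and with median ratio scaling 14 and 16 were called lower. Of the 34 genes called against FACS_GFP, 26 lost the call in at least 1 alternative. The other 8 were called in every alternative that tested them, namely Fos, Jun, Egr1, Egr2, Bcl2a1a, Adam17, Lck and Ptprz1. Of these, Lck was tested in only 13 of 17 alternatives, Egr2 in 14 and Ptprz1 in 16. Lck and Egr2 reached 1 FPKM only in the FACS_GFP libraries of this comparison. Leaving out any 1 of those libraries therefore took both genes out of the tests. Between the sorted groups limma called none of the 81 genes tested, where it called 0.110% of all genes and 1552 genes of all had an unadjusted p under 0.05.

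Among partners and adaptors that pass on the signal, 6 of 18 were called lower and 1 higher against FACS_GFP. Of all tested genes, 19.6% were called lower there and 12.5% higher. Tyrobp, the adaptor DAP12 through which microglial receptors signal and which also stands on the microglial list, was at 377, 627, 337 and 134 FPKM in LCM_GFP, against 977, 787 and 1190 FPKM in FACS_GFP; it fell by 1.59 on the log2 scale (limma adjusted p = 0.0398), a call kept in 7 of 17 alternatives (limma adjusted p up to 0.163). The kinase Syk, which docks on that adaptor, was at 8.60, 9.62, 7.49 and 0.876 FPKM in LCM_GFP, against 32.6, 28.9 and 27.7 FPKM in FACS_GFP, and the phospholipase Plcg2 at 1.85, 16.8, 12.4 and 7.55 FPKM, against 64.0, 64.6 and 61.6 FPKM. Neither gene overlapped between the groups, and the calls were kept in 8 and 14 of 17 alternatives. The others called lower were the phosphoinositide 3-kinase subunits Pik3cd and Pik3cg, kept in 7 and 12 of 17 alternatives, and the tyrosine kinase Fes, kept in 14. Grb10, an adaptor that binds receptor tyrosine kinases, was called higher, at 189, 3.31, 20.7 and 12.5 FPKM in LCM_GFP. It was listed at 0 in all 3 FACS_GFP libraries, so it passed the filter through LCM_GFP alone.

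Of the 7 Src family kinases, which couple the receptor to its effectors, Lyn and Lck were called lower and Fyn higher against FACS_GFP. With so few genes, these counts do not stand apart from the 19.6% of all genes called lower and the 12.5% called higher. The calls of Lyn and Fyn were kept in 14 and 11 of 17 alternatives. Lck was at 1.31, 1.52 and 2.98 FPKM in FACS_GFP and at most at 0.0250 FPKM in LCM_GFP. It passed the filter through FACS_GFP alone. Lyn was at 9.33, 27.9, 58.4 and 10.9 FPKM in LCM_GFP, against 157, 145 and 164 FPKM in FACS_GFP. Fyn was at 18.2, 75.9, 22.3 and 30.2 FPKM in LCM_GFP, against 8.84, 8.10 and 8.78 FPKM in FACS_GFP. None of the 16 tested downstream kinases and STAT factors was called in either comparison, and their median change, -0.37 against FACS_GFP, lay above that of all genes. Mapk3, which encodes the kinase ERK1, had a change of -0.39 there (limma adjusted p = 0.424), and Gsk3b a change of -0.35 (limma adjusted p = 0.593).

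**Figure D4:**
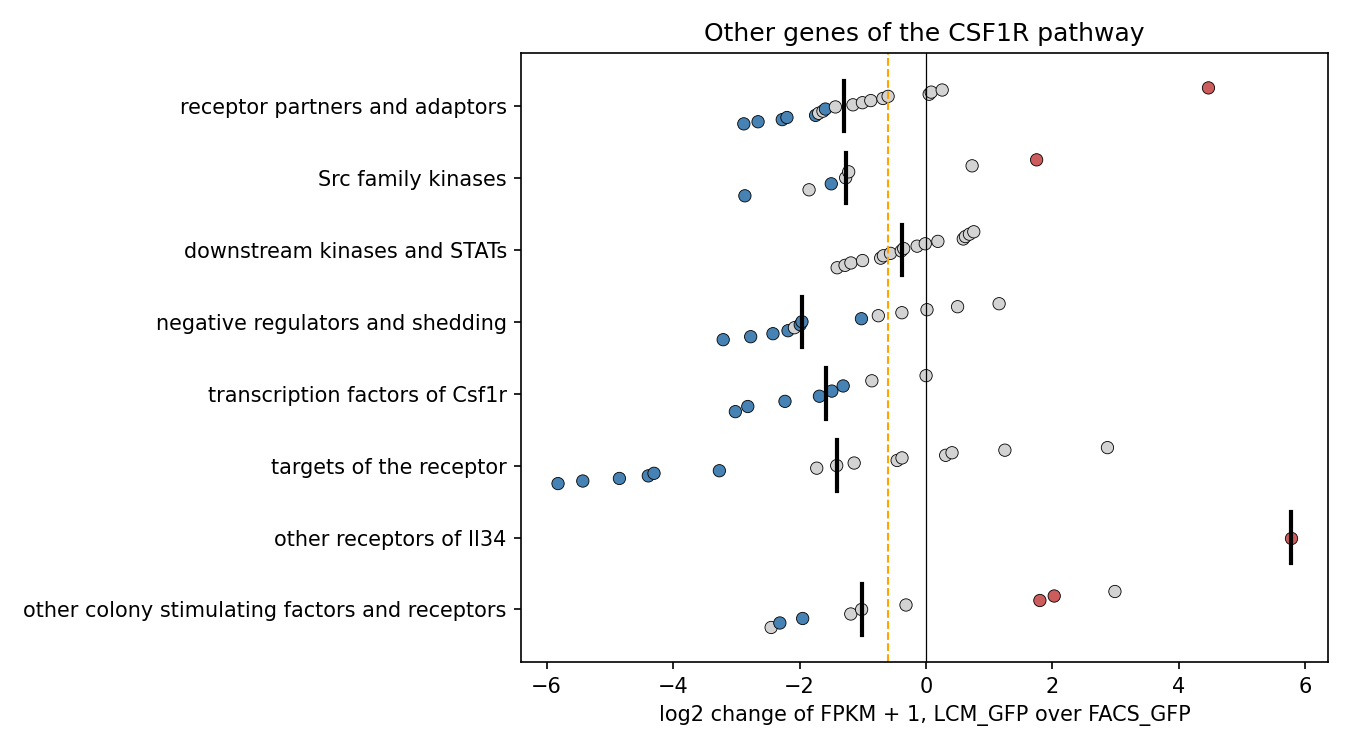
Log2 change of FPKM + 1 in LCM_GFP over FACS_GFP for the 87 tested genes of 8 pathway lists. Each point is a gene, red where called higher, blue where called lower and grey where not called; black bars are list medians and the dashed line is the median of all tested genes (-0.60). No downstream kinase or STAT factor is coloured, whereas 7 negative regulators and 6 transcription factors are called lower. Of all tested genes, 19.6% are called lower.

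Of 13 tested negative regulators and shedding proteases, 7 were called lower and none higher against FACS_GFP, with a median change of -1.96. Of all tested genes, 19.6% were called lower there. Adam17, a protease that releases CSF1R from the cell surface, was at 10.9, 16.7, 8.34 and 12.4 FPKM in LCM_GFP, against 66.3, 65.6 and 69.7 FPKM in FACS_GFP; it fell by 2.42 on the log2 scale (limma adjusted p = 0.00236). The groups were far apart and the laser-captured libraries close together. Inpp5d, the inositol phosphatase SHIP1, was at 17.2, 105, 95.9 and 26.1 FPKM in LCM_GFP, against 217, 211 and 216 FPKM in FACS_GFP. Ptpn6, the phosphatase SHP-1, was lower against FACS_GFP (-2.77, limma adjusted p = 0.0101), but against FACS_WT its change was -1.42 (limma adjusted p = 0.0943). Dok1, Socs3, Adam10 and Usp18 made up the rest, and their calls were kept in 8, 16, 10 and 14 of 17 alternatives. Those of Inpp5d and Ptpn6 were kept in 10 and 16 of 17.

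Of 8 tested transcription factors listed for Csf1r, 6 were called lower and none higher against FACS_GFP, and the same counts were found against FACS_WT. Of all tested genes, 19.6% and 19.1% were called lower in these comparisons. Among the 6 factors called lower is Sall1, which also stands on the microglial list. Spi1, listed as Sfpi1, encodes PU.1, the master regulator of myeloid genes. It was at 5.51, 126, 45.5 and 14.5 FPKM in LCM_GFP, against 217, 196 and 263 FPKM in FACS_GFP and 287, 275 and 323 FPKM in FACS_WT. Its change of -3.01 against FACS_GFP (limma adjusted p = 0.0382) was farther from 0 than that of Csf1r itself, and laser-captured library 1 was the lowest. The call was kept in 10 of 17 alternatives (limma adjusted p up to 0.121). Runx1 fell by 2.23 and Cebpa by 2.82 against FACS_GFP, and Fli1, Ets2 and Sall1 were called lower as well, the last pair in 8 of 17 alternatives each. The calls of Runx1, Cebpa and Fli1 were kept in 13, 14 and 12 of 17. Irf8 was not analysed here.

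Of 15 genes that the receptor is known to induce or use, 6 were called lower and none higher against FACS_GFP. Of all tested genes, 19.6% were called lower there. The immediate early genes Fos, Jun, Egr1 and Egr2, which many stimuli raise besides CSF1, were 4 of the 5 genes with the change farthest from 0 in this list. Fos was listed at 0 in laser-captured library 1 and was at 3.63, 0.642 and 6.85 FPKM in libraries 2 to 4, against 156, 125 and 194 FPKM in FACS_GFP. Jun was at 1.23, 54.5, 29.8 and 25.2 FPKM in LCM_GFP, against 795, 639 and 876 FPKM in FACS_GFP. The other 2 called lower were Bcl2a1a, a survival gene with near-identical copies among which reads could be split, and Plau, the urokinase gene. The call of Plau was kept in 14 of 17 alternatives. Against FACS_WT 6 were lower too and 1 was higher, the cyclin gene Ccnd2 (2.86, limma adjusted p = 0.0499), whose change against FACS_GFP was 2.87 (limma adjusted p = 0.0504). The other cell cycle and survival genes were not called in either comparison: against FACS_GFP Ccnd1 had a change of -0.46 (limma adjusted p = 0.714), and Mcl1 one of 0.41 (limma adjusted p = 0.444).

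Of the other IL-34 receptors, Ptprz1 was called higher in both laser-captured comparisons. It was at 54.0, 38.8, 61.2 and 95.7 FPKM in LCM_GFP, against at most 0.229 FPKM in FACS_GFP and at most 0.0169 FPKM in FACS_WT. It passed the filter through LCM_GFP alone. It also stands on the list of oligodendrocyte precursor genes, all of which were called higher. Sdc1 was at 20.2 FPKM in laser-captured library 1, listed at 0 in library 2 and at 0.185 and 0.388 FPKM in libraries 3 and 4; it was not tested. Among other colony stimulating factors, their receptors and related kinases and ligands, 9 of 13 were tested. Flt3 and Pdgfrb, receptors related to CSF1R, were called higher against FACS_GFP, a call kept in 10 of 16 and 7 of 12 alternatives that tested them. Both were under 1 FPKM in every sorted library and passed the filter through LCM_GFP alone. The ligands Kitl and Flt3l were called lower, kept in 11 and 12 of 17 alternatives. Csf3r, the receptor of granulocyte colony stimulating factor, was at 78.4, 224, 194 and 91.5 FPKM in LCM_GFP, against 334, 284 and 297 FPKM in FACS_GFP. Those groups did not overlap, and the change of -1.19 did not pass the threshold (limma adjusted p = 0.0635), as for Csf1r.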

How the data were processed

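The submitters' processing notes name Cufflinks 2.0.2, Bowtie2 2.0.0, TopHat2 2.0.4, CASAVA 1.8.2 and the mouse build mm9. The authors deposited FPKM per gene and library. A second table deposited by the authors holds log2 fold changes, p-values and q-values per comparison in Cuffdiff's layout. Read counts are not in these tables. Ratios of low FPKM values to those of FACS_GFP library 1 gave no clear step: the fullest bin held at most 6.42% of low genes in laser-captured and 8.72% to 25.8% in the other sorted libraries. The depth is therefore unknown and no counting interval is given. In such a file a value listed at 0 can be a failed estimate, and 13661 genes were listed at 0 in every library.

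From the FPKM, each pair of groups was fitted with limma 3.58.1 (trend and robust, statmod 1.5.0, R 4.3.3) on log2(FPKM + 1), for genes of at least 1 FPKM in at least 3 compared libraries, with two-sided tests, Benjamini-Hochberg adjustment over all tested genes and a threshold of 0.05. Single values were compared by exact permutation of libraries. The fit was checked on simulated data. There it recovered most changes placed between the sorted groups but only a minority of those placed in the laser-captured comparisons. In each comparison it also called some genes in which no change was placed. A gene not called in the laser-captured comparisons is therefore not shown to be unchanged, and a call there can be false. Far fewer genes were changed in the simulation than limma called in those comparisons, so its rates need not hold for them. Tables and figures were made with matplotlib 3.10.9, numpy 2.4.6 and pandas 2.3.3 in Python 3.11.15.

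The members, gene lists and tests were chosen with earlier results of these data known. Named genes are the members, up to 4 genes per list by mean FPKM, the pathway genes called against FACS_GFP, and the 5 genes most like each member among those averaging at least 5 FPKM, without predicted genes, pseudogenes and small RNAs. Other genes named were chosen after their values were seen. Alternatives were pseudocounts of 0.1 and 5, no filter, median ratio and quantile scaling, all groups in 1 fit, sex as a covariate, a replicate block, no trend, laser-captured libraries 2 and 4 only, and leaving out each library. Sequences of the members were not used here. A gene that the naming rule selects is not reported here.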

Additional observations from a re-analysis of the deposited data

Results flagged for a closer look

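Of 77 named genes, 9 had 1 laser-captured library far from the other 3, and none of them is Csf1r, Csf1 or Il34. Chance gives such a distance in about 1 group in 20 if values are normally distributed. These FPKM were not shown to be so, and all 9 lay on the high side, so the count cannot be read against that rate. Laser-captured library 1 was far above the others for Grb10 (189 FPKM, next 20.7), Sdc1 (20.2 FPKM, next 0.388) and Kitl (4.32 FPKM, next 0.335). Library 2 was far above for Mobp (547 FPKM, next 188), Socs3 (3.95 FPKM, next 0.329) and Bcl2a1a (11.4 FPKM, next 0.0442). Library 3 was far above for Plau (11.9 FPKM, next 1.74), and library 4 for Thy1 (295 FPKM, next 154) and Mrc1 (5.83 FPKM, next 0.919).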

How the results depend on the processing

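Csf1r in LCM_GFP over FACS_WT kept its direction in all 17 alternatives and passed the threshold in 7. It did not pass with median ratio scaling (-0.90), quantile normalization (-1.25), no filter or no trend (-1.45 each) or a replicate block (-1.28). In the laser-captured comparisons the block leaves out laser-captured library 4, and leaving that library out without a block gave the same change. With sex as a covariate, where laser-captured library 2 alone stands against the all-male FACS_WT, the change was -0.86. Leaving out 1 library gave -1.68 to -1.20. Over FACS_GFP it was -1.36 to -0.88 on leaving out 1 library and passed with all 3 groups in 1 fit (-1.13). Csf1 over FACS_WT changed sign with laser-captured libraries 2 and 4 only (-0.020) and ranged from -0.071 to 0.28 on leaving out 1 library. Il34 in FACS_GFP over FACS_WT ranged from -0.11 to 0.074 in the same way. Il34 minus Csf1 differed by 3.59 over FACS_GFP and 3.74 over FACS_WT with a pseudocount of 0.1, by 0.507 and 0.656 with one of 5, and by 0.792 to 1.98 and 1.02 to 2.21 on leaving out 1 library. The cause of these shifts was not tested.

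Pathway genes called higher over FACS_GFP numbered 2 with a pseudocount of 5 or no filter and 8 with all 3 groups in 1 fit. Those called lower numbered 14 with median ratio scaling and 19 with the block. The block leaves out laser-captured library 4, and leaving that library out without a block gave 26 called lower. Over FACS_WT, 3 were higher with a pseudocount of 5 or no filter and 4 with the block, and 16 were lower with median ratio scaling. Counts with sex as a covariate are not given there, as that fit sets laser-captured library 2 alone against FACS_WT. Leaving out 1 library gave 1 to 7 higher and 6 to 35 lower over FACS_GFP, and 1 to 8 higher and 6 to 31 lower over FACS_WT. Over all genes, calls across alternatives ran from 738 to 2180 higher and 304 to 4084 lower over FACS_GFP, from 763 to 2156 higher and 326 to 3892 lower over FACS_WT, and from 0 to 10 higher and 2 to 12 lower between the sorted groups. Same-numbered libraries did not deviate together in the laser-captured comparisons (correlations of -0.04 to 0.006). Between the sorted groups the correlations were 0.14, 0.01 and 0.21 for replicates 1 to 3, and replicates 1 and 3 matched their own number best. The labels do not state a pairing, so the replicate numbers were not taken as pairs. With a replicate block, Csf1r in FACS_GFP over FACS_WT was at -0.32 (limma adjusted p = 0.269). FPKM without counts limits what can be said of Il34 near 0.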
